A study of Mus musculus with 8 samples.

Results

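The 10 genes described here encode proteins of the specific and gelatinase granules of neutrophils, the white blood cells whose RNA was sequenced in this series. They were chosen by name: Ltf, Camp, Lcn2, Ngp, Chil3, Mmp8, Cd177 and Olfm4 for the specific granules, and Mmp9 and Mmp25 for the gelatinase granules. All 10 were found among the 23369 genes of the count table and all 10 passed the filter on low counts, which kept 12610 genes. C57BL/6N mice had EAE (experimental autoimmune encephalomyelitis), in which immune cells attack the myelin of brain and spinal cord and which is studied as a model of multiple sclerosis. Neutrophils were taken from their cords by sorting for CD45, CD11b and Ly6G (CD45+CD11b+Ly6G+). Samples were of zeitgeber time (ZT, hours after lights-on) 1, n = 4, or 13, n = 4. Every sample came from a diseased cord, with no healthy mice and no blood or bone marrow neutrophils among the groups, and the labels give no age, no sex and no agent of induction. The labels name no animal for a sample, so that p-values may measure only a spread between samples.

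Neutrophils fill their granules while they mature in the bone marrow, and a granule's content follows from which genes are active when it forms. Azurophil granules come first, specific granules next under the transcription factor C/EBPε, and gelatinase granules last, in nearly mature cells. On activation the order of release is reversed, so that gelatinase granules with their matrix-degrading enzymes are set free before the specific granules with their antimicrobial and iron-binding proteins. In EAE, gelatinases are known for opening the barrier around brain and spinal cord vessels to leukocytes.

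Each library held between 46152067 and 67873023 counts, and all values below are CPM (counts scaled to library size, with TMM factors) unless a share or a level per length is named. The cells carried the transcripts of neutrophils: the summed level of 8 neutrophil markers was 53262 to 85286 CPM at ZT1 and 79416 to 114911 at ZT13, and their part in the granule genes was not tested. Most of that sum was S100a9 (means 27593 CPM at ZT1 and 41785 at ZT13) and S100a8 (25199 and 39083). Of the 8 markers 5 had log2 fold changes (ZT13 over ZT1) above 0 and 3 below. In edgeR 3 were higher and 1 lower at an unadjusted p under 0.05, against 9.2% of all genes in either direction. The 12 markers of monocytes and macrophages summed to 2126 to 2977 and 2096 to 2961 CPM and the 8 of microglia to 135 to 194 and 125 to 231, with none of either list at 0 in every library. Monocytes can make Chil3, and the part of these cells in its level was not tested. The ZT13 libraries held fewer detected genes (14909 ± 766 against 16891 ± 815, SD), without overlap (exact two-sided permutation test over 70 assignments, p = 0.0286, the smallest that 4 against 4 can give). Counted at 10 or more counts the groups overlapped and p was 0.0571 in the same exact test. ZT13 replicate 3 had the fewest, 13945, and its part in the granule genes is given with them.

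The 10 genes took 11.7% of all counts on average. The share was 11.8, 11.4, 10.7 and 10.8% in ZT1 replicates 1 to 4 and 12.2, 12.6, 13.4 and 10.6% in ZT13 replicates 1 to 4. In bulk RNA a change in the number of cells of a kind and one in the RNA of each cell cannot be told apart. Of the ZT13 libraries, 3 of 4 lay above every ZT1 library, while ZT13 replicate 4 lay below them all. The means were 11.2 ± 0.519% at ZT1 and 12.2 ± 1.16% at ZT13, a difference of 1.04 percentage points that was 0.658 without ZT13 replicate 3 and 1.57 without ZT13 replicate 4. The specific granule genes held nearly all of it, 10.3 ± 0.500% at ZT1 and 11.3 ± 1.15% at ZT13, and the gelatinase granule genes 0.855 ± 0.0311% at ZT1 and 0.880 ± 0.0832% at ZT13. Ngp and Ltf alone took 7.37% of all counts, and 5 of the 10 genes (Ngp, Ltf, Chil3, Mmp9 and Lcn2) were among the 10 with the most counts in the table.

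**Figure D1:**
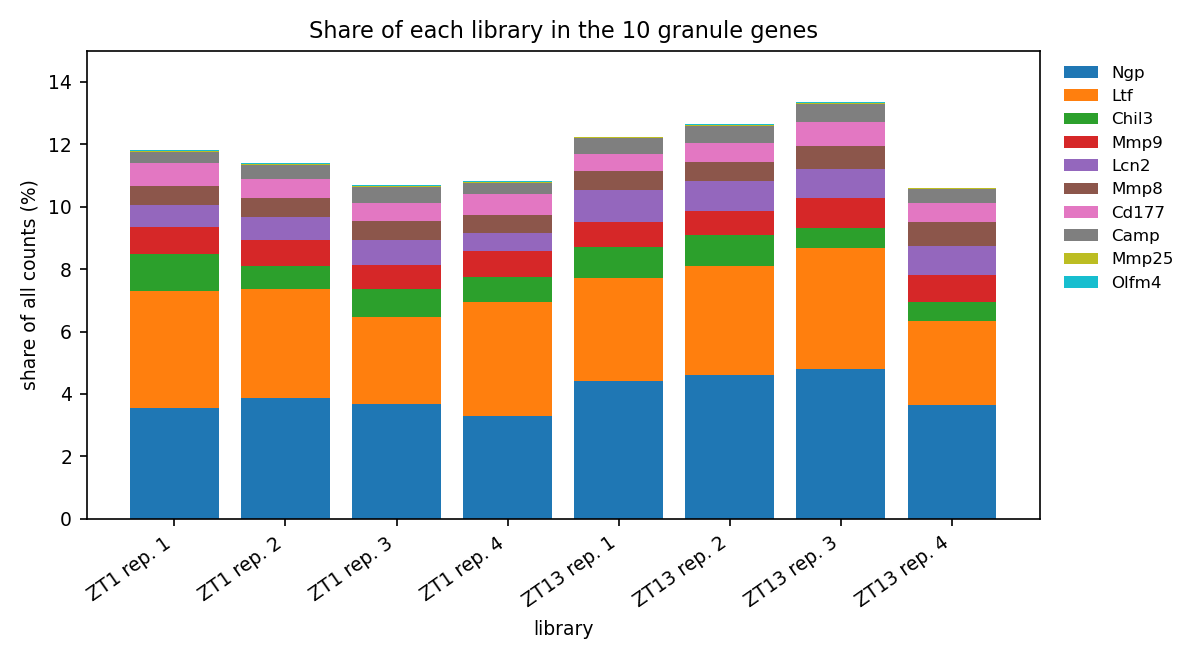
Share of all counts (%, y axis) taken by each of the 10 granule genes in the 8 libraries (x axis), stacked. The total runs from 10.6% in ZT13 replicate 4 to 13.4% in ZT13 replicate 3, and Ngp (bottom) and Ltf make up most of every bar.

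Levels of different genes can be compared only per transcript length. Per kilobase of the principal transcript, Ngp was the highest of the 10 at 28932 ± 3462 CPM per kb at ZT1 (SD, n = 4, as in all such values here) and 36515 ± 4553 at ZT13, rank 3 of all genes. Ltf followed at 12194 ± 890.3 and 12466 ± 1985 CPM per kb, although it lies close to Ngp in counts. Next came Lcn2 with 7580.4 ± 1524 and 10712 ± 363 CPM per kb. Camp (5520.2 ± 1473 at ZT1) and Chil3 (5763 ± 1079.6) did not differ beyond their spread there. The same held for Mmp9 (2538 ± 98.6) and Mmp8 (2438 ± 165 CPM per kb), while Cd177 stood at 2338 ± 102. Mmp25 (71.2 ± 4.76) and Olfm4 (60.0 ± 13.8 CPM per kb) were the lowest and overlapped each other. The specific granule genes thus held both the highest and the lowest level, and Mmp9, the main gelatinase, lay among the middle ones.

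The DNA before the gene starts was searched for the core of the C/EBP motif, since C/EBPε is the known activator of specific granule genes. The motif TTGCNNAA (N, any base) was sought on both strands of the 250 bases before each RefSeq start on GRCm38.p6, and windows were found for 9 of the 10 genes, Mmp9 being the other. It was present in 4 of the 9, Ltf, Ngp, Lcn2 and Mmp8, and in 9.56% of 32851 windows of the same length, or 10.8% of the 27025 genes these belong to. With Mmp9 not searched, 8 of the 9 were specific granule genes, so that the motif cannot be compared between granule types. In Ngp it occurred at 138 and at 11 bases before the start, in Ltf at 75, in Mmp8 at 19 and in Lcn2 at 216. The site of Lcn2 and the nearer one of Ngp lie in exons that GENCODE annotates for other transcript starts. The other 3 sites are shown in their surroundings, 5′ to 3′ on the gene's strand up to the first annotated exon or start, with the motif in capitals.
Ltf, chr9:111019042-111019270, + strand: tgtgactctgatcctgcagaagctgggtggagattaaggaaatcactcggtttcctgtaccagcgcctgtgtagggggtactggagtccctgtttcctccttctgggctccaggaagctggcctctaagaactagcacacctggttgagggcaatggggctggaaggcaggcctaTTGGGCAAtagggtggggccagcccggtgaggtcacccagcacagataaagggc
Ngp, chr9:110419558-110419746, + strand: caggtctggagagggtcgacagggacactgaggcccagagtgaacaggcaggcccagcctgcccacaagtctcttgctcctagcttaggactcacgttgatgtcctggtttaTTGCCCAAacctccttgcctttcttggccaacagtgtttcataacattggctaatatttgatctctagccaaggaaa
Mmp8, chr9:7558179-7558428, + strand: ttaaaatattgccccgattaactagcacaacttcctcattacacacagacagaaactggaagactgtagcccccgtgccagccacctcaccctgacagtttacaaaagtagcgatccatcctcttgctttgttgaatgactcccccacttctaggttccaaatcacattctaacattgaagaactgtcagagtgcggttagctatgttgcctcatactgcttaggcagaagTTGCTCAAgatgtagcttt
Ltf holds the motif as TTGGGCAA, read on the other strand, and Ngp as TTGCCCAA, which are the same 8 bases on opposite strands. A match is a string of letters and no evidence of binding.

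Of the 10 genes, 0 differed between ZT13 and ZT1 in edgeR's quasi-likelihood test after Benjamini-Hochberg adjustment, and 0% of the 12610 genes tested did. At an unadjusted p under 0.05 stood 2 of the 10, Lcn2 and Ngp, both with the higher mean at ZT13, against 9.2% (1160) of all genes in either direction and 4.35% with the higher level at ZT13. That count of 2 was 1 without ZT13 replicate 3 or without ZT1 replicate 4, and 4 without ZT1 replicate 3. DESeq2 called 0.936% of the genes (118), Lcn2 among them, and limma-voom 0. The groups did not overlap for 1 of the 10, Lcn2, against 5.66% of all genes in either direction and 2.66% with ZT13 above. Of the 10 log2 fold changes (ZT13 over ZT1) 9 were above 0, with a median of 0.16, against 47.7% and a median of -0.019 over all genes. Without ZT13 replicate 3, 7 were above 0 and the median was 0.10, and with library totals for scaling 7 were above 0 as well, Ltf and Cd177 being the genes that changed sign there. All 10 genes average over 100 CPM, and of the 1545 genes that do, 40.1% were above 0, 7.96% were higher at ZT13 at an unadjusted p under 0.05 and 3.17% had ZT13 above without overlap. Scaling also set the balance over all genes: of those at an unadjusted p under 0.05, 47.2% were higher at ZT13 with TMM factors and 34% with library totals.

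Of the iron-sequestering proteins, Lcn2 (lipocalin 2, which binds bacterial siderophores, on chromosome 2, 32384633 to 32388252 on GRCm38) showed the largest log2 fold change of the 10 between the time points. Its level was 6464, 7247, 8674 and 5359 CPM at ZT1 (replicates 1 to 4) and 10074, 9454, 10096 and 9580.0 at ZT13. The ZT13 libraries lay close together and above all ZT1 libraries, of which replicate 3 came nearest and replicate 4 was the lowest. Means were 6936 ± 1394 and 9801 ± 332 CPM and the log2 fold change was 0.50 ± 0.13 (SE), with a 95% interval from 0.20 to 0.80 and adjusted p = 0.403 in edgeR and 0.0280 in DESeq2. Ltf (lactoferrin, an iron-binding protein of the transferrin family; chromosome 9, 111019271 to 111042767) stood at 34583, 35280.1, 29861 and 34062 CPM at ZT1 (replicates 1 to 4) and 32769.5, 34768, 41187 and 28054 at ZT13. Both the highest and the lowest library were of ZT13, replicates 3 and 4, with all ZT1 libraries between them. The log2 fold change was 0.032 ± 0.12 (SE), with an interval from -0.24 to 0.30, and it was -0.035 when libraries were scaled by their totals and -0.072 without ZT13 replicate 3.

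Camp and Ngp encode members of the cathelicidin family. Camp gives the antimicrobial peptide CRAMP, and Ngp (neutrophilic granule protein) is a relative of it known from mouse granules. The 2 genes and Ltf are near each other on chromosome 9, Camp at 109847379 to 109849617 and Ngp at 110419747 to 110423012, with Ltf next. The level of Camp was 3232, 4567, 5592 and 3346 CPM at ZT1 (replicates 1 to 4) and 4878, 5423, 6271 and 4745 at ZT13. At ZT1 replicates 1 and 4 were low and replicate 3 lay inside the ZT13 range. The log2 fold change of 0.35 ± 0.18 (SE) had an interval from -0.049 to 0.75. Ngp stood at 32522, 38941, 39013 and 30945 CPM at ZT1 (replicates 1 to 4) and 43856, 45669.9, 51230.5 and 37729 at ZT13. Here 3 ZT13 libraries lay above every ZT1 library and ZT13 replicate 4 lay within the ZT1 range. Means were 35355 ± 4231 and 44621 ± 5564 CPM, and the log2 fold change of 0.34 ± 0.12 (SE) had an interval from 0.067 to 0.60 and adjusted p = 0.491 in edgeR.

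The remaining specific granule genes encode a lectin, a collagenase, a surface receptor and a matrix glycoprotein. Mmp8, the neutrophil collagenase (chromosome 9, 7558456 to 7568485), stood at 5651, 6142, 6349.8 and 5503 CPM at ZT1 (replicates 1 to 4) and 6204, 6036, 7827 and 8193 at ZT13. ZT13 replicates 3 and 4 were the highest and the other 2 ZT13 libraries lay within the narrow ZT1 range, so that the log2 fold change of 0.26 ± 0.12 (SE) had an interval from -0.0031 to 0.52. Chil3, the chitinase-like lectin Ym1 (chromosome 3, 106147554 to 106167564), was the only one of the 10 with a log2 fold change below 0, at -0.10 ± 0.18 (SE). Its level was 11019, 7577, 9344 and 7541 CPM at ZT1 (replicates 1 to 4) and 9931, 9908, 7029 and 6137 at ZT13. ZT1 replicate 1 held the most and ZT13 replicates 3 and 4 the least. The log2 fold change was 0.013 without ZT1 replicate 1, 0.012 without ZT13 replicate 4 and -0.037 without ZT13 replicate 3. Chil3 has a close relative in Chil4, whose reads could be shared with it, and Chil4 held at most 1.06 CPM in any library.

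Cd177, a surface and granule membrane protein that binds the endothelium (chromosome 7, 24743983 to 24760311), stood at 6749.9, 6207, 6134 and 6291 CPM at ZT1 (replicates 1 to 4) and 5311, 5944, 8091 and 6077 at ZT13. The ZT1 libraries were close to each other and the ZT13 libraries lay on both sides of them. The log2 fold change was 0.0023 ± 0.12 (SE) and -0.14 without ZT13 replicate 3, and it was below 0 with library totals, without the filter on low counts and in limma-voom. Olfm4 (olfactomedin 4; chromosome 14, 79984081 to 80023139), which is known to mark a subset of neutrophils, was the scarcest of the 10 by level per length and the most variable at ZT13. Its level was 217, 179, 148 and 129 CPM at ZT1 (replicates 1 to 4) and 162, 255, 221 and 128 at ZT13. The lowest libraries of the 2 time points were almost equal and the coefficient of variation was 23.0% at ZT1 and 30.0% at ZT13. Its log2 fold change was 0.19 ± 0.23 (SE), with an interval from -0.32 to 0.70, which takes in changes of either sign. It was 0.015 without ZT13 replicate 2 and 0.34 without ZT13 replicate 4.

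The gelatinase granule genes differed little between the time points. Mmp9 (gelatinase B, chromosome 2, 164940780 to 164955850) stood at 7719, 8365, 8282 and 7872 CPM at ZT1 (replicates 1 to 4) and 7882, 7609, 10125 and 9023 at ZT13. The coefficient of variation at ZT1 was 3.88%, the smallest of the 10 genes there, and at ZT13 it was 13.3%, with replicate 3 highest and replicates 1 and 2 inside or below the ZT1 range. The log2 fold change was 0.10 ± 0.10 (SE), with an interval from -0.12 to 0.33, and 0.018 without ZT13 replicate 3. Mmp25, a membrane-anchored metalloproteinase of leukocytes (chromosome 17, 23628311 to 23645277), stood at 345, 300.0, 337 and 309 CPM at ZT1 (replicates 1 to 4) and 379, 306, 389 and 347 at ZT13. Its groups overlapped, and the log2 fold change of 0.14 ± 0.097 (SE) had an interval from -0.077 to 0.36.

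**Figure D2:**
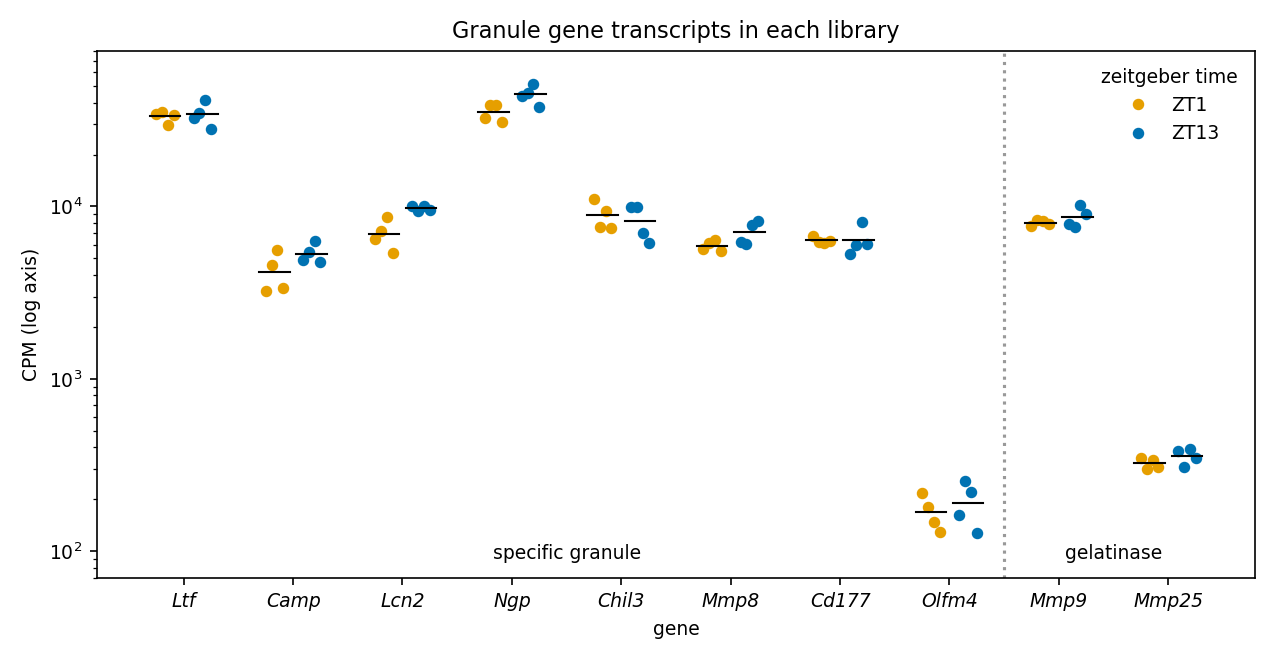
Level of each granule gene (CPM, log axis) in the 4 ZT1 (orange) and 4 ZT13 (blue) libraries, each point 1 library in the order of the replicates and each bar the mean of 4, with the specific granule genes left of the dotted line. The 4 ZT13 points of Lcn2, between 9454 and 10096 CPM, lie above its ZT1 points, and all other genes overlap.

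How the genes varied within a time point differed between them. ZT13 replicate 3 was the highest of the 8 libraries for 7 of the 10 genes (Ltf, Camp, Lcn2, Ngp, Cd177, Mmp9 and Mmp25) and lay above the mean of the 8 for 9, all but Chil3. ZT13 replicate 4 was the highest for Mmp8 and the lowest for Ltf, Chil3 and Olfm4. ZT1 replicate 4 was the lowest for Lcn2, Ngp and Mmp8. Ratios within a library need no scaling between libraries, but they keep any difference by transcript length. Ngp (1222 bases) and Lcn2 (915 bases) are shorter than Ltf (2743 bases), and the part of length in their ratios was not tested. These ratios also diverged inside the specific granule set. The log2 ratio of Ngp to Ltf was -0.089, 0.14, 0.39 and -0.14 at ZT1 (replicates 1 to 4) and 0.42, 0.39, 0.31 and 0.43 at ZT13, and that of Lcn2 to Ltf was -2.42, -2.28, -1.78 and -2.67 at ZT1 (replicates 1 to 4) and -1.70, -1.88, -2.03 and -1.55 at ZT13. In both the ZT1 libraries spread widely, and ZT1 replicate 3 lay within the range of ZT13. Of the counts in the 10 genes, Ltf took 30.6 ± 3.14% at ZT1 and 27.3 ± 1.43% at ZT13, and Ngp 32.2 ± 2.24% and 35.7 ± 0.955%, with overlap in both.

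**Figure D3:**
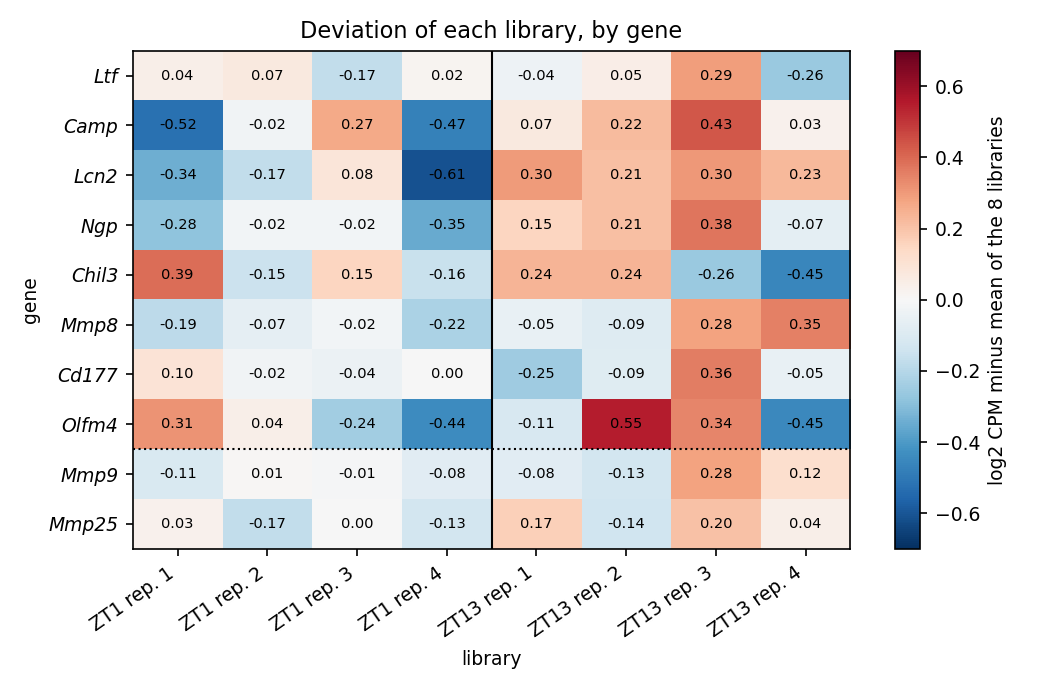
Deviation of each library (columns) from the mean of the 8 libraries for each granule gene (rows), in log2 CPM, with red above and blue below the mean. The solid line parts ZT1 from ZT13 and the dotted line the specific from the gelatinase granule genes, and ZT13 replicate 3 is above the mean for every gene but Chil3.

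The set was meant to compare the early-made specific with the later gelatinase granule genes. The log2 ratio of the summed counts of the 8 specific to the 2 gelatinase granule genes was 3.64, 3.61, 3.61 and 3.51 at ZT1 (replicates 1 to 4) and 3.78, 3.89, 3.65 and 3.43 at ZT13. The ZT13 libraries spread on both sides of the ZT1 libraries, from the lowest ratio in replicate 4 to the highest in replicate 2, and the mean difference of 0.093 was smaller than the spread of 0.20 (SD) at ZT13. It was 0.024 without ZT13 replicate 2 and 0.18 without ZT13 replicate 4. On the linear scale the specific genes held 12.1 counts for each gelatinase count at ZT1 and 12.9 at ZT13 (geometric means). Per kilobase the ratio was 24.8 at ZT1 and 27.6 at ZT13, a log2 difference of 0.16 with SDs of 0.095 and 0.20 and overlap. Without Ngp the difference was 0.01, and with Mmp8, whose transcript is known to appear later than those of the other specific granule proteins, moved to the gelatinase genes it was 0.02. The median log2 fold change was 0.22 for the 8 specific and 0.12 for the 2 gelatinase genes, but within the specific set it ran from -0.10 to 0.50. Mmp9 and Mmp8 encode related enzymes, and their log2 ratio was 0.45, 0.45, 0.38 and 0.52 at ZT1 (replicates 1 to 4) and 0.35, 0.33, 0.37 and 0.14 at ZT13, so that all ZT1 libraries lay above all ZT13 libraries by a narrow margin, 0.38 against 0.37. That pair was picked after the values were seen and was not tested.

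Fold changes over the abundant genes of the table differed by transcript length. Among the 1545 genes averaging 100 or more CPM, 1542 had a known length. The 69 of at most 1000 bases had a median log2 fold change of 0.40, the 128 of 1000 to 1500 bases 0.18 and the 202 of 1500 to 2000 bases 0.040. For the 422 of 2000 to 3000 bases it was -0.062 and for the 721 longer ones -0.10. Camp (758 bases) and Lcn2 (915 bases) belong to the shortest class and Ngp (1222 bases) to the next, while both gelatinase genes are in the longest class. The shortest of the 10 genes, Camp, Lcn2 and Ngp, also had the largest log2 fold changes (0.35, 0.50 and 0.34). Among the longer ones length gave no steady order, since Chil3 (1539 bases) had the lowest log2 fold change and Mmp8 (2425 bases) stood at 0.26. The 2 longest genes are the 2 gelatinase genes, so that granule type and length cannot be told apart in these 10 genes. The level of the shortest class in a library, as the median deviation of its 67 other genes from their mean of the 8 libraries, was -0.48, -0.19, 0.25 and -0.47 on the log2 scale in ZT1 replicates 1 to 4 and 0.081, 0.16, 0.27 and 0.32 in ZT13. ZT1 replicates 1 and 4, low in Camp and Lcn2, were also low here, and ZT1 replicate 3 was as high as the ZT13 libraries.

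Set against the other genes of its length class in each library, a measure chosen after the values were seen, Lcn2 no longer separated the groups. The difference of means was 0.090 in place of 0.50 for Lcn2, -0.052 in place of 0.35 for Camp and 0.13 in place of 0.34 for Ngp, with overlap in each. Mmp8 did so against the 418 other genes of its class, where it stood at -0.18, -0.13, -0.045 and -0.27 in ZT1 replicates 1 to 4 and 0.022, -0.026, 0.26 and 0.35 in ZT13. It was the 1 gene of the 10 without overlap on this scale, with a difference of means of 0.31 and a narrow gap between the highest ZT1 (-0.045) and the lowest ZT13 library (-0.026). Of the 1542 genes, 7.91% did not overlap on this scale, 4.6% with ZT13 above, so that 1 of 10 is near the background. Mmp25 (0.23), Olfm4 (0.23) and Mmp9 (0.19) also had positive differences against their classes, with overlap between groups. Differences on this scale, and the part of the number of detected genes in them, were not tested.

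**Figure D4:**
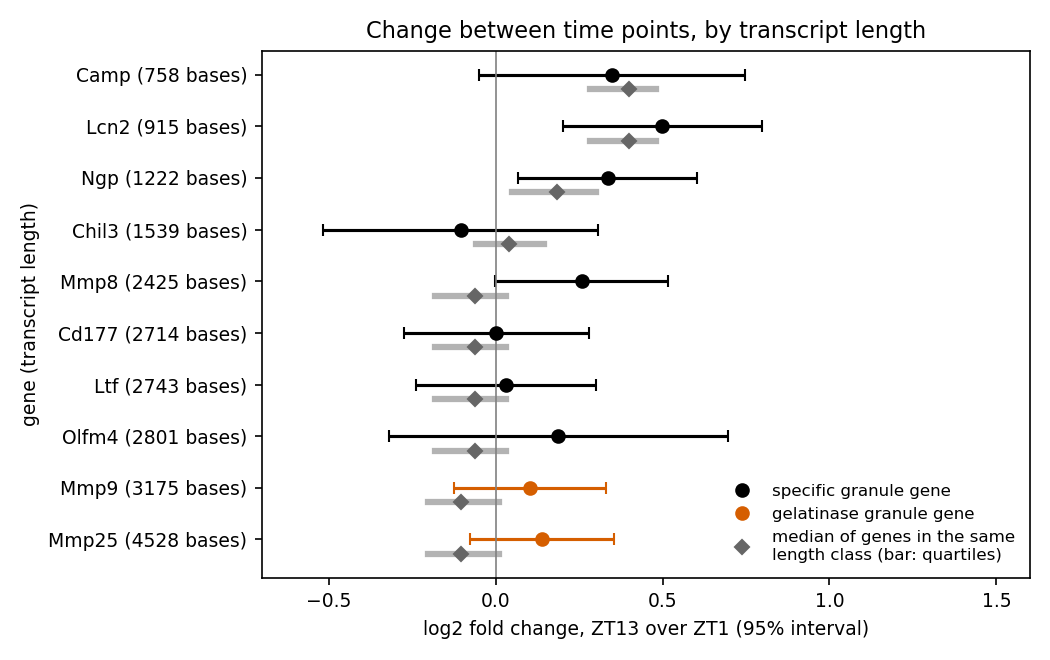
Log2 fold change of ZT13 over ZT1 (x axis) with its 95% interval for each granule gene, sorted by transcript length from top to bottom, black for specific and orange for gelatinase granule genes. Grey diamonds give the median, and grey bars the quartiles, of the genes of 100 or more CPM in the same length class, which run from 0.40 in the shortest to -0.10 in the longest.

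The granule genes did not form 1 pattern over the libraries. After each time point's mean was taken off, Pearson's r with Ltf over the 8 libraries was 0.68 for Olfm4, 0.66 for Cd177 and 0.53 for Ngp, but 0.10 for Camp and -0.20 for Lcn2. With Mmp9 it was 0.88 for Mmp8, 0.75 for Cd177, 0.45 for Camp and 0.44 for Mmp25, and -0.71 for Chil3, which was low where Mmp9 was high. Among 2889 genes averaging 50 or more CPM, those most like Ltf were Ckap4 (0.95), Lta4h (0.94), Glyr1 (0.94), Zfyve27 (0.94) and Fbxo9 (0.93). Lta4h makes the neutrophil attractant leukotriene B4. Those most like Mmp9 were Hmgb2 (0.98), Vasp (0.97), Pdlim7 (0.97), Cmtm6 (0.96) and Mtch1 (0.96), with Mmp8 at rank 48. Vasp drives actin filament growth. These values describe 8 libraries that share their scaling, and the highest of so many genes were picked.

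The regulators and partners of these genes showed 0 calls in edgeR after adjustment in every list, and 0% of all 12610 genes tested were called. At an unadjusted p under 0.05 stood 9.2% of all genes in either direction, the background for the unadjusted counts below. Genes of these lists, and the neutrophil markers above, were not set against genes of the same transcript length. Of 8 transcription factors of granule genes 4 had positive and 4 negative log2 fold changes, from -0.46 to 0.53. At an unadjusted p under 0.05 stood 2 higher, Cebpd and Spi1, and 1 lower, which is not named here. No value is given here for the gene of C/EBPε. Cebpd, at 261 ± 46.2 CPM at ZT1 and 377 ± 29.7 at ZT13, was the 1 of the 8 without overlap between groups, against 5.66% of all genes in either direction. Spi1 (PU.1) stood at 886 ± 107 CPM at ZT1 and 1069 ± 47.4 at ZT13. Cebpb, the most abundant, stood at 2122 ± 468 CPM at ZT1 and 2022 ± 426 at ZT13. Of 14 tested other genes of specific and gelatinase granules 9 were positive, 4 were higher and 1 lower at an unadjusted p under 0.05, and the median was 0.015. Lyz2 (lysozyme) stood at 25109 ± 4423 CPM at ZT1 and 25907 ± 2782 at ZT13 and Orm1 (orosomucoid, an acute phase protein) at 27.8 ± 6.89 CPM at ZT1 and 41.5 ± 3.23 at ZT13, while Arg1 (arginase 1) stood at 11.3 ± 12.7 CPM at ZT1 and 0.153 ± 0.305 at ZT13 with all but 1 ZT13 library at 0. The list for azurophil granules, the earliest made, has 10 genes and holds an inhibitor of their proteases, Serpinb1a, besides granule proteins. At an unadjusted p under 0.05 its 1 higher gene was that inhibitor and its 1 lower gene Ctsc. The median over the list was 0.017. Ctsc (cathepsin C, which activates the serine proteases of that granule) stood at 1366 ± 165 CPM at ZT1 and 1019.5 ± 164 at ZT13, and Serpinb1a, which inhibits them, at 779.7 ± 10.2 CPM at ZT1 and 978 ± 154 at ZT13.

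Secretory vesicles are the most readily released store of neutrophils, and 4 of 6 tested genes of their list were positive, with a median of 0.23. Genes were put in this list by name, and where their proteins are stored was not tested. Fpr2, a receptor for formyl peptides and for cathelicidin, stood at 152 ± 30.9 CPM at ZT1 and 223 ± 10.2 at ZT13. Anxa1, a ligand of that receptor, stood at 7114 ± 509.7 CPM at ZT1 and 8936 ± 1263 at ZT13. They were the 2 of the 6 without overlap, against 5.66% of all genes in either direction and 2.66% with ZT13 above. Both stood at an unadjusted p under 0.05, against 4.35% of all genes with the higher level at ZT13. Neither passed the adjusted threshold. Of 15 genes of the machinery that docks and fuses granules 5 were positive, 0 stood at an unadjusted p under 0.05, and the median was -0.057. Rac2, a GTPase needed for granule release, stood at 2521 ± 294 CPM at ZT1 and 2883 ± 157 at ZT13. Of 6 tested partners and inhibitors of the granule proteins 0 stood at an unadjusted p under 0.05. Timp2, an inhibitor of metalloproteinases, stood at 364 ± 59.1 CPM at ZT1 and 359.8 ± 64.8 at ZT13, while Timp1, the main inhibitor of Mmp9, was at most 1.69 CPM in any library and listed at 0 in several. Trf (transferrin, a relative of Ltf) stood at 503 ± 49.4 CPM at ZT1 and 343 ± 59.9 at ZT13. It was the 1 of 6 tested relatives without overlap, against 5.66% of all genes in either direction. Chil1, a relative of Chil3, stood at 1802 ± 85.4 CPM at ZT1 and 1913 ± 187 at ZT13. Markers of proliferating precursors, the cells that make specific granule proteins in the bone marrow, summed to 1509 to 2082 CPM at ZT1 and 1631 to 1913 at ZT13, so that the summed level overlapped. Of these 10 markers 8 had log2 fold changes below 0, against 52.3% of all genes. At an unadjusted p under 0.05 stood 2 lower and 1 higher at ZT13, against 9.2% of all genes in either direction. Top2a stood at 225 ± 61.3 CPM at ZT1 and 161 ± 16.5 at ZT13, with overlap. Hmgb2, a chromatin protein and the most abundant of these markers, stood at 776 ± 31.4 CPM at ZT1 and 944 ± 88.2 at ZT13. It was the 1 of the 10 without overlap, against 5.66% of all genes in either direction. The part of such cells in the levels of the granule genes was not tested.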

How the data were processed

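RNA of 8 samples of sorted spinal cord neutrophils was reverse transcribed and amplified with SMART-Seq v4, made into Nextera XT libraries and read in single reads of 50 bases, per the labels' protocols. The kit does not mark the strand. The deposited values are the authors' raw read counts for each gene, in 1 table. The submitters' processing notes list DESeq2 1.46.0, Subread 2.0.3, featureCounts, STAR 2.7.10b and FastQC as tools and GRCm38 as build. Roles, treatment of multi-mapping reads and annotation version: not given in the sources used here. Identifiers were matched to GENCODE M21 without version numbers (22231 of 23369 matched, 17 with the same version; the others held 0.121% of counts), which gave symbols, coordinates and the length of the longest principal transcript. Columns were assigned by library names, with 0 left unused.

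The comparison of ZT13 with ZT1 was fitted in edgeR 4.0.16 (R 4.3.3) with filterByExpr (minimum count 10, minimum total 15), TMM factors, robust quasi-likelihood F-tests and Benjamini-Hochberg adjustment over 12610 genes at 0.05. Standard errors are the absolute log2 fold change over the square root of F, and log2 CPM used a prior count of 2. DESeq2 1.42.0 and limma 3.58.1 were alternatives, besides other scalings, no filter, each library left out and the replicate number as a block. At totals of 46152067 to 67873023 counts, a count of 0 allows up to 3 counts or 0.0442 to 0.0650 CPM, for counting error only. The fitting procedure was tested on simulated data with known changes. Summed shares and ratios were not tested. The members, lists and rules were chosen with earlier results of these data known. The text names the 10 members, from each other list the most abundant gene and those of smallest p (not all are printed), and the 5 genes most like Ltf and Mmp9. No 2 libraries of the same time point agreed within sampling noise, and pairs across time points were not compared. Promoter sequences are those of RefSeq, GRCm38.p6.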

Additional observations from a re-analysis of the deposited data

How the results depend on the processing

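The 10 genes gave 0 calls in edgeR under every other scaling, filter and block and in limma-voom, and 0 with any library left out. DESeq2 called 118 genes, among them 1 of the 10, Lcn2 (log2 fold change 0.50, adjusted p = 0.0280), where edgeR called 0. Leaving out 1 library moved the log2 fold change of Lcn2 between 0.39 and 0.62 and that of Ngp between 0.26 and 0.41. For 3 genes near 0 the sign turned. Ltf was -0.035 with library totals and between -0.072 and 0.11 with a library left out, Chil3 between -0.21 and 0.013 with a library left out, and Cd177 -0.067 with library totals, -0.017 without the filter, -0.015 in limma-voom and between -0.14 and 0.077 with a library left out. Camp was -0.052 relative to its length class, an alternative chosen after seeing the data. The cause of these turns was not tested, except that values relative to a length class take off the class's own difference. With all counts but those of the 10 most abundant genes as the base, the share of the 10 granule genes was 13.8% at ZT1 and 15.8% at ZT13. That is a difference of 2.04 points. The base then lacks 5 of the granule genes and also S100a9, S100a8, Lyz2, Tmsb4x and Anxa1, while the sum keeps all 10. The part of each in the wider difference was not tested. Genes with 10 or more counts differed by -807.5 between the time points, against -1983 for genes with 1 or more, and at 10 or more counts the groups overlapped (exact permutation p = 0.0571 in place of 0.0286). The sample titles give both groups the replicate numbers 1 to 4, but library names in the labels number ZT13 replicates 3 and 4 otherwise, so that the pairing is in doubt. Libraries of the same title number did not deviate together (correlations from -0.0399 to 0.0196). By library names ZT13 replicate 3 would go with ZT1 replicate 4 (0.0505). With the title number as a block edgeR again called 0 genes and Cd177 stood at -0.015. The parts of depth and of the spread between samples in the precision were not tested.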
